A study of Mus musculus with 6 samples.

Results

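Rabif and Kdm5b are neighbours on mouse chromosome 1, and their brightest probe sets read lower in thymus of (AKR/J x FVB/NJ)F1 mice than in thymus of (DBA/2J x FVB/NJ)F1 mice. The genes described here are Cyb5r1, Adipor1, Klhl12, Rabif and Kdm5b, in that order along the chromosome in the RefSeq table of assembly GRCm38.p6. They were taken by symbol, as every probe set annotated with exactly 1 gene symbol that was one of these 5. This gave 13 of the 45101 probe sets on the array and 5 of 18193 genes with such a probe set. The genes were chosen by their log2 differences between these same arrays, so those differences are given as a description and without a test.

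The tissue was thymus of adult females, snap-frozen and run on single-channel Affymetrix arrays, with 3 arrays of the AKR cross (AKR/J x FVB/NJ)F1 and 3 arrays of the DBA cross (DBA/2J x FVB/NJ)F1. FVB/NJ is the common parent, so at each autosomal gene every animal carries 1 FVB/NJ allele, and the crosses differ in the allele from AKR/J or DBA/2J. A difference between the arrays is thus a difference between heterozygotes, not between the inbred strains themselves. Nothing in the labels says that the 3 arrays of a cross came from separate animals, and p-values then measure the spread between these samples. Values are the deposited log2 values, and differences are AKR cross minus DBA cross with the standard error (SE) of the limma fit over all probe sets. A gene was called at an adjusted p under 0.05 (limma, Benjamini-Hochberg). In bulk thymus, a smaller number of cells of 1 type cannot be told apart from less RNA per cell.

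KDM5B is a demethylase of the JmjC family that takes methyl groups off lysine 4 of histone H3, a mark of active promoters and enhancers. RABIF, also called MSS4, is a small zinc-binding protein that binds Rab GTPases of the exocytic pathway without their nucleotide and keeps them stable. KLHL12 brings substrates to the CUL3 ubiquitin ligase, among them the coat protein SEC31A and Dishevelled. ADIPOR1 is a membrane receptor for the fat hormone adiponectin, and CYB5R1 is a flavoprotein of the cytochrome b5 reductase family that takes electrons from NADH.

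The promoters of Rabif and Kdm5b are shown because the brightest probe sets of these 2 genes had the largest differences among the 5 genes. Each run spans 250 bases before to 50 bases after the RefSeq start on the + strand of GRCm38.p6, at chr1:134494389-134494688 for Rabif and chr1:134559928-134560227 for Kdm5b. Capitals mark GGGCGG, the core of the GC box, searched on both strands.
Rabif: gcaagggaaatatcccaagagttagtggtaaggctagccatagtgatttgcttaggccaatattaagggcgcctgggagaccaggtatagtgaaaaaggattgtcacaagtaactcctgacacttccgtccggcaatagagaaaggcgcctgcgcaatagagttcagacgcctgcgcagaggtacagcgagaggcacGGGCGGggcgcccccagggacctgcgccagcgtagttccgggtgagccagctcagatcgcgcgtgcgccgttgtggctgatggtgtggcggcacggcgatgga
Kdm5b: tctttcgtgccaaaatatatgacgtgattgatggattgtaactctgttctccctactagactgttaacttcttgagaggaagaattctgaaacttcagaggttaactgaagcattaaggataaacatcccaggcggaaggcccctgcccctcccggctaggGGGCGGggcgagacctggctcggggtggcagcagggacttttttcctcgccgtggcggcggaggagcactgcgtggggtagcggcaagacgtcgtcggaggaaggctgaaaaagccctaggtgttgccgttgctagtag
Both promoters hold 1 GGGCGG, which 35.6% of the 32817 promoters of the table hold at least once. Rabif has 22 CpG dinucleotides and a GC content of 58.3%, and Kdm5b has 17 CpG and 54.7%, where the median promoter has 7 CpG. The Rabif promoter also holds 1 CCAAT, found in 37.4% of promoters, and Kdm5b holds none. Neither holds TATAAA (13.6% of promoters) or CACGTG (7.15% of promoters), both also searched on both strands. Klhl12 has 1 GGGCGG in its promoter, and the Adipor1 promoters, of which the table lists 2, have 2 and 3. The Cyb5r1 promoter holds none, with 5 CpG and a GC content of 45.7%. These are the letters of the C57BL/6J reference, and the alleles of AKR/J, DBA/2J and FVB/NJ were not analysed here.

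Rabif gave the largest difference among the 13 probe sets. Its brightest probe set, 1419927_s_at, read 8.93, 8.89 and 9.07 on the AKR arrays, against 10.77, 10.57 and 10.83 on the DBA arrays. The lowest DBA array stood 1.49 above the highest AKR array, while arrays of 1 cross spanned at most 0.26. The difference was -1.76 ± 0.09 (SE), a 3.38-fold lower reading in the AKR cross, which ranked 171 by size among 27385 tested probe sets. The ending _s_at marks a probe set that can match several transcripts, which for this one may include transcripts of other genes.

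The other 3 Rabif probe sets were dim and did not share one direction. Probe set 1457969_at had 5.82, 5.70 and 5.63 on the AKR arrays, against 6.30, 5.97 and 6.25 on the DBA arrays. It went the same way as the brightest one but by less, at -0.46 ± 0.12. Probe set 1447557_at went the other way, with 6.0, 5.93 and 5.68 on the AKR arrays, against 4.87, 5.48 and 5.40 on the DBA arrays. Its difference was 0.62 ± 0.17, and DBA replicate 1, its lowest array, was the one below the 40th percentile of its array. Without that array the difference was 0.43.

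Probe set 1449669_at was designed on AW549708, the same expressed sequence as the brightest Rabif probe set, and it also leaned to the AKR cross. It read 5.01, 5.14 and 5.04 on the AKR arrays, against 4.49, 4.94 and 4.87 on the DBA arrays, a difference of 0.30 ± 0.13. All 6 arrays lay below their 40th percentile, a value of 5.21 to 5.28, so this probe set was not among those tested. The groups did not overlap for any of the 4 Rabif probe sets, and 44.7% of all tested probe sets did not overlap either. Of the 4, 2 read lower and 2 read higher in the AKR cross. The values settle neither the size nor the direction of the difference in Rabif RNA, and sequence differences under the probes were not tested.

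Kdm5b had the second largest difference. Its brightest probe set, 1427143_at, read 8.60, 8.32 and 8.62 on the AKR arrays, against 9.43, 9.61 and 9.36 on the DBA arrays. The groups stood 0.74 apart at their nearest arrays. The difference was -0.95 ± 0.10 (SE), 1.94-fold lower in the AKR cross, and it kept this direction in 15 of 15 other settings, from -1.01 to -0.85. A dimmer probe set, 1442278_at, read 5.40, 5.61 and 5.30 on the AKR arrays, against 6.21, 5.91 and 5.86 on the DBA arrays, a difference of -0.56 ± 0.13.

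The remaining pair of Kdm5b probe sets showed no such gap. Probe set 1427142_s_at, designed on BC019446 like the brightest one, had 6.56, 6.53 and 6.63 on the AKR arrays, against 6.74, 6.60 and 6.50 on the DBA arrays. Probe set 1457482_at had 5.50, 5.54 and 5.52 on the AKR arrays, against 5.56, 5.62 and 5.29 on the DBA arrays. Their differences were -0.04 ± 0.10 and 0.03 ± 0.11, with overlapping groups in both. Probe sets of 1 gene from 1 source sequence thus read nearly level and 1.94-fold apart on the same arrays.

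Klhl12, the next gene before Rabif, showed no such gap. Its single probe set read 7.79, 7.71 and 7.62 on the AKR arrays, against 7.72, 7.48 and 7.72 on the DBA arrays, a difference of 0.07 ± 0.10. The groups overlapped.

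Adipor1, before Klhl12, differed by little on 3 probe sets. The brightest, 1439017_x_at, read 9.48, 9.36 and 9.46 on the AKR arrays, against 9.69, 9.53 and 9.52 on the DBA arrays, a difference of -0.15 ± 0.07. Here the groups just failed to overlap, with 0.03 between the nearest arrays. The other probe sets, 1451311_a_at and 1424312_at, differed by -0.12 ± 0.08 and 0.06 ± 0.09, and both overlapped.

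Cyb5r1, the first of the 5 genes along the chromosome, leaned to the AKR cross. Its probe set read 8.25, 8.13 and 8.27 on the AKR arrays, against 8.20, 7.76 and 7.81 on the DBA arrays. The difference was 0.29 ± 0.12, and DBA replicate 1 lay among the AKR arrays while the other two DBA arrays lay below them. Without DBA replicate 1 the difference was 0.43. As a description only, since these differences chose the genes, 1 of the 12 probe sets that entered the fit lay past its threshold with a higher AKR reading, 4 with a higher DBA reading and 7 did not. Over all 27385 tested probe sets 27.2% lay past it, which were 12.2% with a higher AKR reading and 15% with a higher DBA reading. The arrays of the crosses lay apart for 6 of these 12 probe sets, against 44.7% of all tested ones, and also for the dim Rabif 1449669_at, which was not tested.

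**Figure D1:**
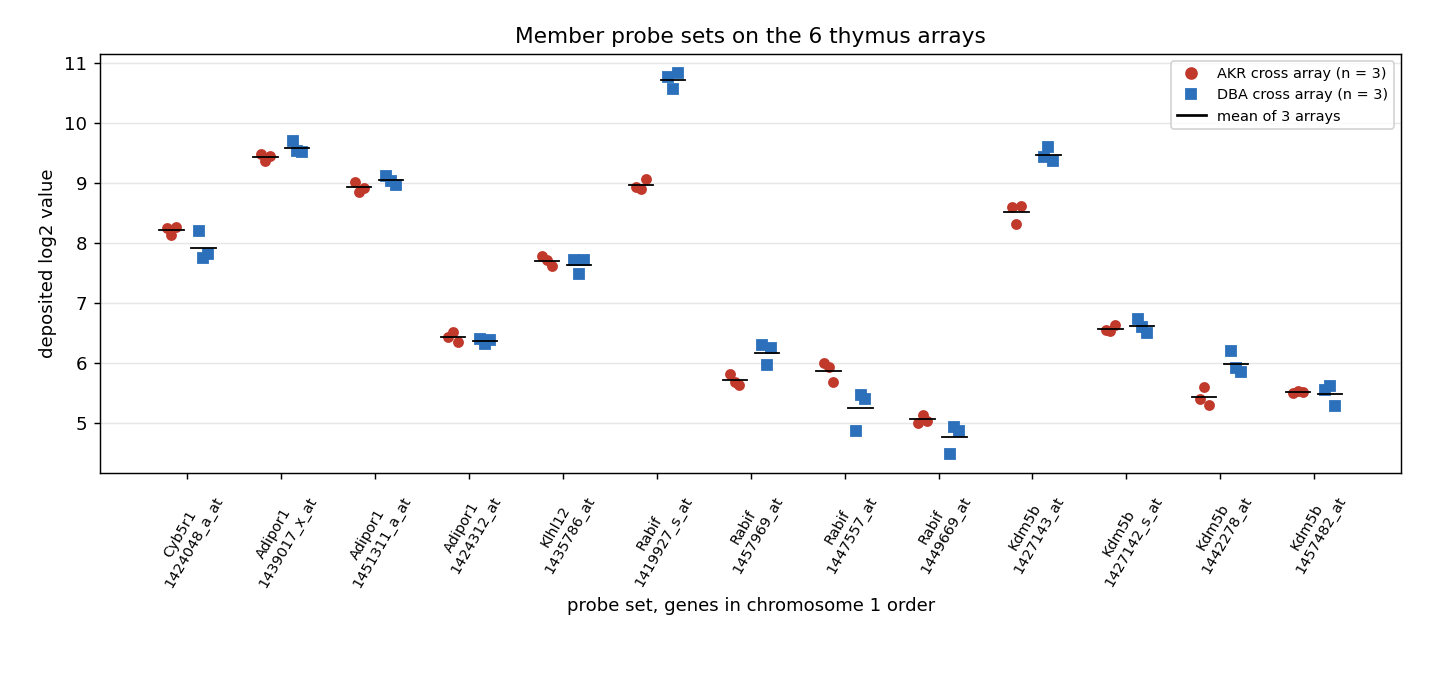
Deposited log2 value (vertical axis) of each of the 13 probe sets on the 6 arrays, in chromosome order of the genes, with AKR arrays as circles, DBA arrays as squares and the mean of 3 arrays as a line. Rabif 1419927_s_at and Kdm5b 1427143_at show wide gaps, with differences of -1.76 and -0.95, while Rabif 1447557_at runs the other way and the Klhl12 arrays overlap.

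The genes on either side are described next, but their values do not fix where a difference ended. No tested gene lay between the 5 genes. RefSeq lists 6 others between Rabif and Kdm5b, and of these Mgat4e alone had a single-symbol probe set, which was below the 40th percentile on all 6 arrays. The next gene after Kdm5b, Syt2, a synaptotagmin of regulated secretion, had 3 probe sets that all lay below it as well. The first tested neighbour after Kdm5b was Ppp1r12b, a regulatory subunit of myosin phosphatase. It read 7.36, 7.17 and 7.50 on the AKR arrays, against 7.33, 7.29 and 7.25 on the DBA arrays, a difference of 0.05 ± 0.10 with a 95% interval from -0.18 to 0.28. Its probe set 1445850_at, named after its values were seen, read 4.78, 4.82 and 4.96 on the AKR arrays, against 5.63, 5.50 and 6.01 on the DBA arrays. This difference of -0.86 ± 0.14 was called (adjusted p = 0.00225, limma), with all 3 AKR arrays below the 40th percentile, and the 2 further probe sets of Ppp1r12b were not called.

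After Ppp1r12b, the brightest probe sets of the next tested genes were not called. Ube2t, a ubiquitin-conjugating enzyme of DNA crosslink repair, differed by 0.24 ± 0.09 (adjusted p = 0.0833, limma), and its groups did not overlap. It was called in 2 of 16 other settings, quantile rescaling and a common 75th percentile. Lgr6, a receptor for R-spondins, differed by 0.01 ± 0.11. The values were 0.08 ± 0.08 for Ptprv and 0.03 ± 0.09 for Gpr37l1, an orphan receptor. By their brightest probe sets, 0 of the 10 tested genes nearest after Kdm5b were called (limma), against 24% of all genes. Of these 10, 2 had an unadjusted p under 0.05, and the differences ran from -0.11 to 0.24. The called Ppp1r12b 1445850_at, at -0.86, lay outside this range.

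On the other side, Tmem183a, the first tested gene before Cyb5r1, differed by 0.03 ± 0.08, with a 95% interval from -0.15 to 0.22. Ppfia4, a liprin gene of synaptic scaffolds, came next at 0.30 ± 0.10 and was not called (adjusted p = 0.0529, limma), though 7 of 16 other settings called it. Chil1, a chitinase-like secreted protein, was the nearest called neighbour, and it was lower in the AKR cross. It read 6.10, 6.14 and 6.26 on the AKR arrays, against 6.64, 6.92 and 6.43 on the DBA arrays, a difference of -0.50 ± 0.13 (adjusted p = 0.0236, limma). Chil1 was not called when AKR replicate 1, AKR replicate 2 or DBA replicate 2 was left out (adjusted p = 0.0679, 0.0689 and 0.0695, limma). Chit1, a chitinase gene, differed by 0.05 ± 0.12, and Btg2, an antiproliferative gene and p53 target, by 0.34 ± 0.13 (adjusted p = 0.0905, limma).

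**Figure D2:**
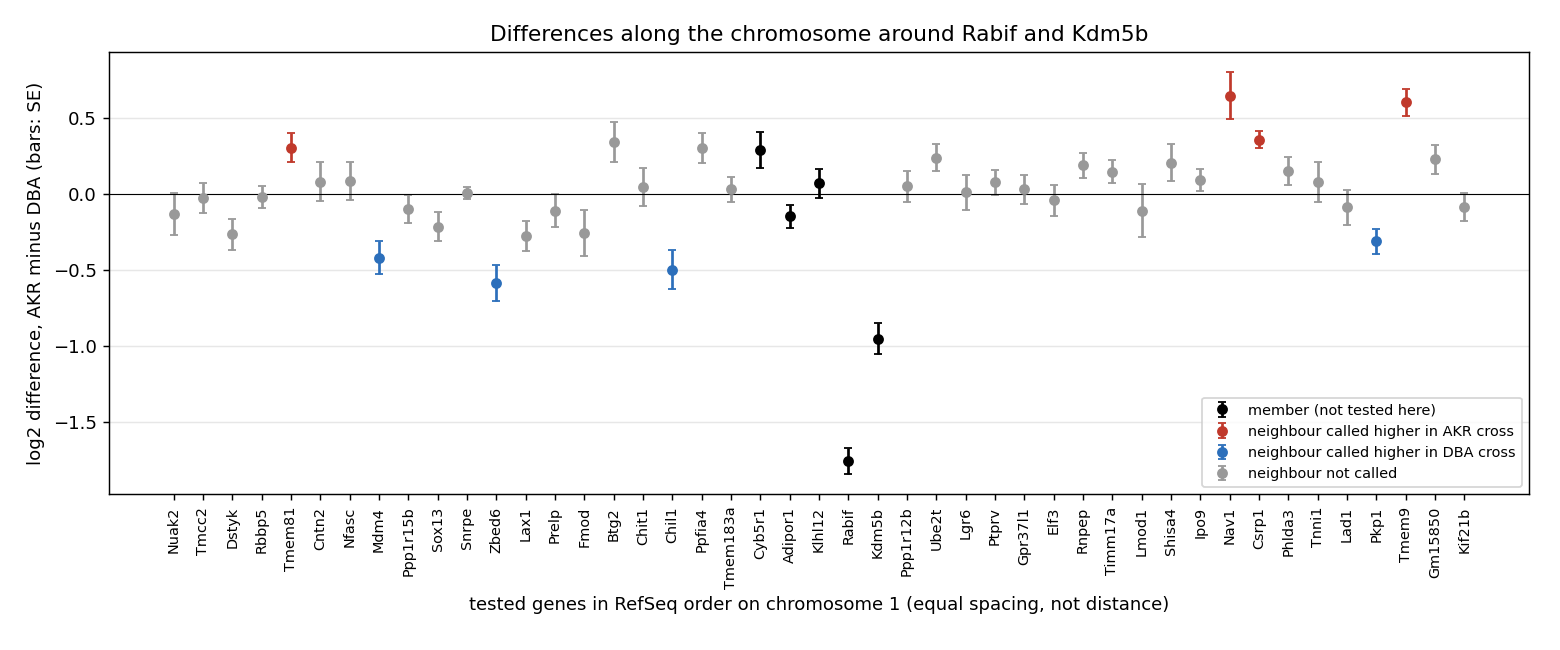
Log2 difference, AKR cross minus DBA cross, with SE bars (vertical axis) for the brightest tested probe set of 45 successive tested genes in RefSeq order on chromosome 1 (horizontal axis, equal steps). Rabif at -1.76 and Kdm5b at -0.95 stand below the brightest probe sets of all 40 neighbours, which run from -0.59 to 0.65. Rabif and Kdm5b were chosen by these same differences, so their place below the neighbours is a description and not a test. Further probe sets of the neighbours are not drawn, and some lay below -0.59, such as Ppp1r12b 1445850_at at -0.86.

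Among the 40 tested neighbours, 20 on each side, 4 had a called AKR-higher difference and 4 a called DBA-higher one. Over all 12855 genes these shares were 12.5% and 11.5%, so the neighbours' 20% was near the 24% of all genes. The arrays of the crosses lay apart for 16 of the 40, against 43.9% of all genes. Before Cyb5r1 the calls were 1 and 3, and after Kdm5b they were 3 and 1, with medians of -0.06 and 0.09 against 0.03 over all genes. None of the 40 differed by 2-fold, while 125 of 12855 genes did. The count of 8 called neighbours was 4 without AKR replicate 1, 4 without AKR replicate 2 and 5 without DBA replicate 2. After rescaling by quantiles, 7 neighbours were called higher in the AKR cross. Over all genes 52% of calls were higher in the AKR cross, against 62.1% after that rescaling and 61.6% with a common 75th percentile. The span of these 45 genes holds 65 protein-coding genes in RefSeq, of which 43 were tested, 11 had only dim probe sets and 11 had no probe set with a single symbol.

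Zbed6, a transposon-derived transcription factor gene, was lower in the AKR cross, with -0.59 ± 0.12 (adjusted p = 0.00887, limma). Its other probe set was called the same way at -0.82. Mdm4, an inhibitor of p53, was lower in the AKR cross (-0.42 ± 0.11), and so was the desmosome gene Pkp1 (-0.31 ± 0.08). Higher in the AKR cross were Csrp1, a LIM protein gene (0.36 ± 0.06), the transmembrane gene Tmem9 (0.61 ± 0.09), Nav1, a microtubule-binding protein gene (0.65 ± 0.16), and Tmem81 (0.31 ± 0.10). The calls of Zbed6, Csrp1 and Tmem9 held in 16 of 16 other settings. Nav1 was not called with AKR replicate 2 left out (adjusted p = 0.0607, limma). Mdm4 was no longer called in 4 of 6 fits with 1 array left out, AKR replicate 1, AKR replicate 2, DBA replicate 2 or DBA replicate 3 (adjusted p = 0.0576, 0.0623, 0.0774 and 0.0756, limma), or with the mean of its probe sets (0.170). Pkp1 was no longer called when AKR replicate 1, DBA replicate 1 or DBA replicate 2 was left out (adjusted p = 0.0839, 0.0711 and 0.0946, limma). Among single arrays left out, Tmem81 held its call only without DBA replicate 3, with a highest adjusted p of 0.126 (limma, DBA replicate 2), and it was also lost with no filter on dim probe sets (0.0588). Rbbp5, a subunit shared by the histone H3 lysine 4 methyltransferases, also lies in this span and, named after its value was seen, differed by -0.02 ± 0.07.

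The other KDM5 demethylases, Kdm5a and Kdm5c, lie on other chromosomes and also had probe sets that moved apart. Their brightest probe sets were not called, at -0.17 ± 0.07 for Kdm5a and 0.11 ± 0.07 for Kdm5c. The further probe sets of both genes are named after their values were seen. Of 5 tested Kdm5a probe sets, 2 were called lower and 1 higher in the AKR cross. Over all tested probe sets 27.2% were called, 15% lower and 12.2% higher in the AKR cross. Kdm5a 1437106_at read 5.18, 4.59 and 5.45 on the AKR arrays, against 6.51, 6.67 and 6.87 on the DBA arrays, a difference of -1.61 ± 0.20 (adjusted p = 0.000597, limma), with 2 AKR arrays below the 40th percentile. Kdm5a 1444842_at went the other way, with 7.45, 6.89 and 7.05 on the AKR arrays, against 5.74, 6.01 and 5.92 on the DBA arrays (1.24 ± 0.15). The brighter of the 2 called lower, Kdm5a 1452360_a_at, differed by -1.33 ± 0.22 (adjusted p = 0.00261, limma), with no array below the 40th percentile. These called Kdm5a probe sets all kept their call with any single array left out.

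Of 8 tested Kdm5c probe sets, 4 were called higher and 1 lower in the AKR cross, against 12.2% and 15% of all tested ones. Kdm5c 1426497_at had 6.79, 6.71 and 6.77 on the AKR arrays, against 5.52, 6.12 and 5.99 on the DBA arrays, a difference of 0.88 ± 0.15. Kdm5c 1457930_at had 6.63, 5.9 and 6.66 on the AKR arrays, against 7.66, 7.41 and 7.48 on the DBA arrays, a difference of -1.12 ± 0.19. Both calls held with any single array left out, as did that of Kdm5c 1441450_s_at (0.52 ± 0.09), while Kdm5c 1441449_at (0.44 ± 0.12) and Kdm5c 1426498_at (0.37 ± 0.11) held in 2 and 1 of 6 such fits. AKR replicate 2 was the lowest AKR array on Kdm5a 1437106_at, Kdm5a 1452360_a_at, Kdm5c 1457930_at and Kdm5b 1427143_at. The differences without it were -1.37, -1.02, -0.88 and -0.85. Kdm5a and Kdm5c each had probe sets called in both directions.

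**Figure D3:**
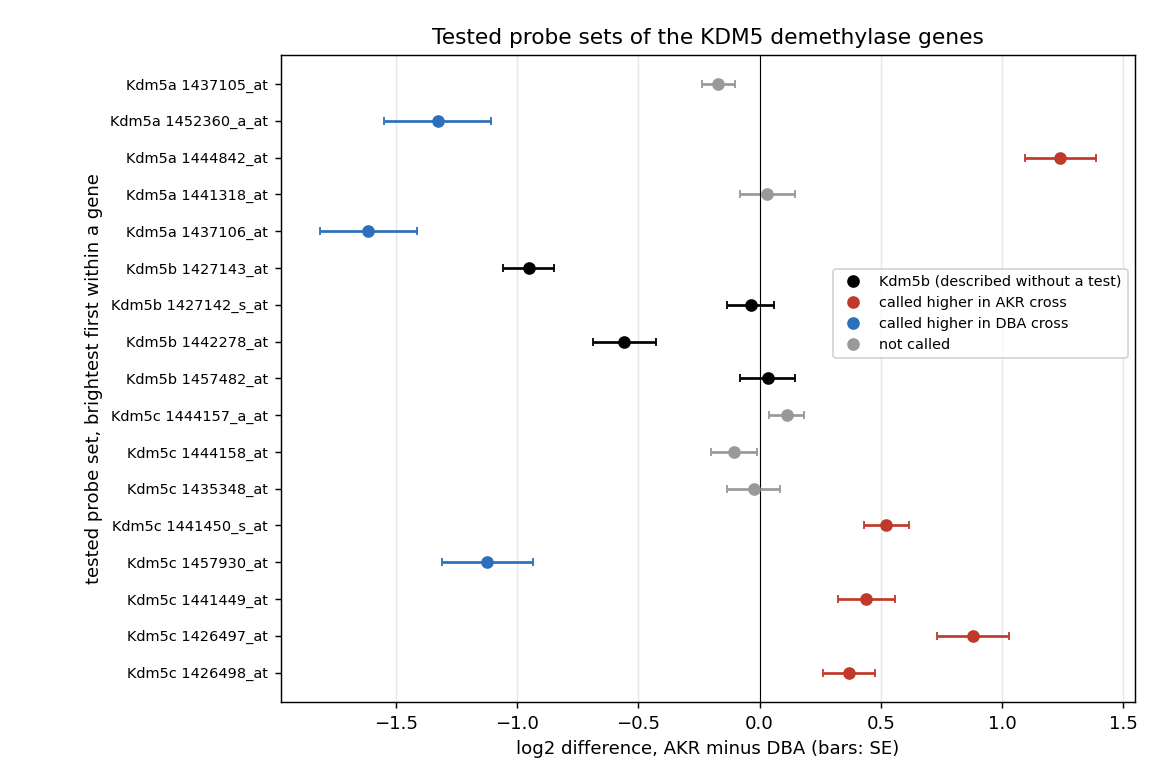
Log2 difference, AKR cross minus DBA cross, with SE bars (horizontal axis) for the 17 tested probe sets of Kdm5a, Kdm5b and Kdm5c (vertical axis, brightest first within a gene). Kdm5a runs from -1.61 to 1.24 and Kdm5c from -1.12 to 0.88, while the 4 Kdm5b probe sets run from -0.95 to 0.03.

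Over 6 lists of genes related to the 5 neighbours, 26 of 88 tested genes were called (29.5%), against 24% of all genes. For genes listed around methylation of histone H3 lysine 4, the mark KDM5B acts on, the brightest probe sets differed by -0.38 to 0.46. Not all of these encode enzymes of that mark, since subunits such as Rbbp5 and relatives such as Kdm2a were listed too. Of 16 listed genes, all tested, 5 had a called AKR-higher difference, 1 a called DBA-higher one and 10 none, a called share of 37.5%. The list median was 0.02, against 0.03 over all genes. The methyltransferase genes Kmt2d (0.39 ± 0.07), Setd1b (0.42 ± 0.08) and Kmt2a (0.46 ± 0.07) were higher in the AKR cross (adjusted p = 0.00491, 0.00575 and 0.00191, limma). The other Kmt2a probe set was called the other way at -0.32, and averaging the probe sets of a gene ended the calls of Kmt2a and Setd1b (adjusted p = 0.429 and 0.0680, limma). Kmt2b (0.36 ± 0.07), named after its value was seen, held its call in 16 of 16 other settings. The fifth, Setd1a, also named after its value was seen, read 0.20 ± 0.06 (adjusted p = 0.0481, limma), lost its call with any single array left out (highest adjusted p 0.118), and turned to -0.30 (0.0210) when its probe sets were averaged, since its other probe set was called at -0.79. Kmt2c, a further methyltransferase gene, was lower in the AKR cross at -0.38 ± 0.07, and its 3 other probe sets were all called the same way.

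Among 13 other genes of the JmjC family, 1 had a called AKR-higher difference, 5 a called DBA-higher one and 7 none, with a median of -0.16. This called share was 46.2%, against 24% of all genes, where 12.5% were AKR-higher and 11.5% DBA-higher. Kdm6b, a demethylase of H3K27, read 11.55, 11.48 and 11.54 on the AKR arrays, against 10.59, 10.63 and 10.55 on the DBA arrays. It was the gene called higher in the AKR cross, at 0.93 ± 0.05 (adjusted p = 1.64e-05, limma), but its other probe sets were called at 0.69 and -0.86, and their mean was not called (adjusted p = 0.0852). Kdm7a (-0.43 ± 0.07), a demethylase of histone H3, and Jmjd1c (-0.35 ± 0.07), a family member, were lower in the AKR cross and held their calls in 16 of 16 other settings. Kdm6a, another H3K27 demethylase, differed by -0.46 ± 0.12 and was not called when AKR replicate 2, DBA replicate 2 or DBA replicate 3 was left out (adjusted p = 0.0518, 0.0518 and 0.0740, limma), while its 2 other probe sets were called the same way. Kdm3a (-0.25 ± 0.07) and Phf8 (-0.30 ± 0.09), named after their values were seen, lost their calls in 3 and 5 of 6 fits with 1 array left out: Kdm3a without AKR replicate 2, DBA replicate 2 or DBA replicate 3 (highest adjusted p 0.0937, limma), and Phf8 without any but AKR replicate 1 (highest 0.112).

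Rab GTPases of exocytosis and their regulators, the genes around RABIF's function, went both ways. Of 19 tested genes, 2 had a called difference in each direction and 15 had none, with a median of 0.10. That called share of 21.1% was near the 24% of all genes. Rab8b, a GTPase of transport to the plasma membrane, read 0.31 ± 0.05 lower in the AKR cross (adjusted p = 0.00418, limma). Rab3a, of regulated exocytosis, was 0.47 ± 0.10 higher, and Rab1b, of transport from the endoplasmic reticulum, was 0.32 ± 0.07 higher. Rab10 (0.10 ± 0.07), Rab8a (0.16 ± 0.06) and Rab13 (-0.08 ± 0.14), named after their values were seen as known partners of RABIF, were not called. Dennd4c, an exchange factor for Rab10, differed by -0.32 ± 0.08 and was not called when AKR replicate 2, DBA replicate 2 or DBA replicate 3 was left out (adjusted p = 0.0590, 0.0559 and 0.0596, limma).

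In the list around KLHL12, 2 of 17 tested genes had a called AKR-higher difference, 4 a called DBA-higher one and 11 none, with a median of 0.08. Calls made up 35.3% of this list, against 24% of all genes. The 4 DBA-higher genes were Cul3, Rbx1, Spop and Klhl7. Cul3, the scaffold that binds KLHL12, was lower in the AKR cross at -0.36 ± 0.06 (adjusted p = 0.00418, limma), and 2 of its 4 other probe sets were called the same way. Rbx1, the ring subunit of the ligase, differed by -0.68 ± 0.12, and the substrate adaptors Spop and Klhl7 by -0.45 ± 0.06 and -0.60 ± 0.09. These 4 calls held in 16 of 16 other settings. The KLHL12 cofactors Pef1 (0.22 ± 0.07) and Pdcd6 (0.07 ± 0.07) and the substrate Sec31a (0.17 ± 0.07), named after their values were seen, were not called. The AKR-higher genes, named after their values were seen, were Dvl2, a Dishevelled gene (0.40 ± 0.08), and Sec13, a partner of SEC31A in the coat (0.28 ± 0.07). Dvl2 held its call in 16 of 16 other settings, and Sec13 was not called when AKR replicate 1, AKR replicate 3, DBA replicate 2 or DBA replicate 3 was left out (highest adjusted p 0.0656, limma).

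In the adiponectin receptor list, around Adipor1, 0 of 13 tested genes had a called AKR-higher difference and 2 a called DBA-higher one (limma), with a median of -0.11, and 0 had an AKR-higher difference at an unadjusted p under 0.05. The called share was 15.4%, against 24% of all genes. The called genes were Prkaa2, a catalytic subunit of AMP-activated kinase (-0.48 ± 0.12), and Cdh13, a surface receptor for adiponectin (-0.44 ± 0.13). Prkaa2 was not called when AKR replicate 1, AKR replicate 3 or DBA replicate 2 was left out (adjusted p = 0.0515, 0.0530 and 0.0598, limma). Cdh13 kept its call in 1 of 6 fits with an array left out, that without AKR replicate 2, with a highest adjusted p of 0.117 (limma). Adipor2, the second receptor, differed by -0.03 ± 0.08. In the cytochrome b5 reductase list, around Cyb5r1, 1 of 10 tested genes had a called difference in each direction, a share of 20%, with a median of 0.08. Cyb5b, the mitochondrial outer membrane cytochrome b5, was higher in the AKR cross by its brightest probe set (0.28 ± 0.07). Neither of its further probe sets was called, at -0.28 ± 0.10, the other way, and 0.05 ± 0.07. Its call ended without AKR replicate 1, DBA replicate 2 or DBA replicate 3 (adjusted p = 0.0562, 0.0608 and 0.0512, limma) and with its probe sets averaged (0.860). Cyb5r4, a soluble family member, was lower (-0.31 ± 0.08), and its call ended when AKR replicate 1, AKR replicate 3, DBA replicate 1 or DBA replicate 2 was left out (highest adjusted p 0.0874, limma) and after quantile rescaling (0.0505).

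**Figure D4:**
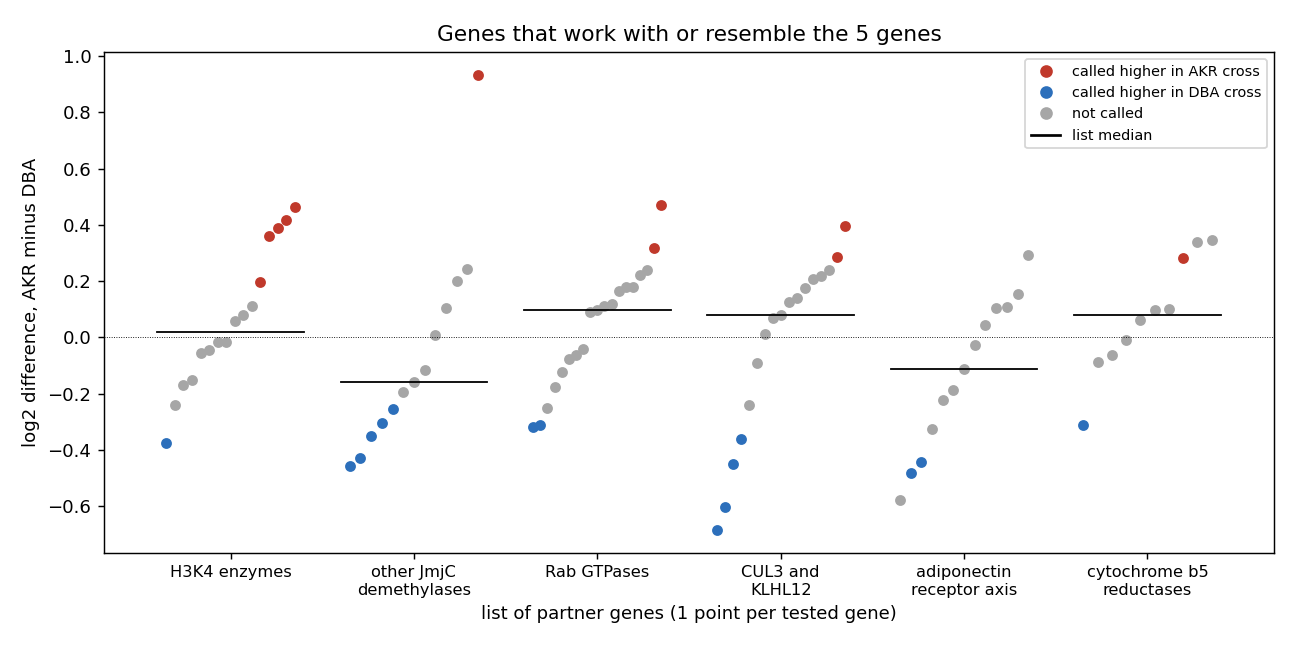
Log2 difference, AKR cross minus DBA cross (vertical axis), of each tested gene in the 6 lists of genes related to the 5 neighbours, coloured by call, with the list median as a line. Medians run from -0.16 for the list labelled other JmjC demethylases to 0.10 for the Rab GTPases, and called genes lie on both sides of 0 in 5 of 6 lists.

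Over the 6 arrays, the values of the brightest Kdm5b and Rabif probe sets had a Pearson r of 0.957. The genes whose values were most like those of Kdm5b were Rab28, Ptpn12, Ccl11, Zfp292 and Gnai3, with r from 0.998 to 0.999 over the 6 arrays. For Rabif they were Zc2hc1a, Slco5a1, Stab2, Tmem87b and Zbtb5, with r of 0.998 to 0.999. All 10 genes were lower in the AKR cross, by -0.25 for Gnai3 to -2.45 for Stab2, and of them only Slco5a1 lies on chromosome 1. With 3 arrays per cross this measure largely follows the difference between the crosses, and the points share the same arrays.

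The tissue markers and arrays bear on these values as follows. All 9 thymocyte markers with a single-symbol probe set and all 6 of thymic epithelium lay above the 40th percentile on every array. Of 2 red cell markers, Alas2 also did, and Hba-a1 lay below it on all 6 arrays. Of the thymocyte markers Cd3e was called higher in the AKR cross (0.30), and of the epithelial markers Foxn1 was called higher there (0.67), while Aire (-0.34) and Epcam (-0.59) were called lower. Array correlations ran from 0.994 to 0.996 within a cross and from 0.984 to 0.989 between crosses. The 3 B cell markers averaged 8.0 to 8.19 on the AKR arrays, against 7.62 to 7.79 on the DBA arrays, with 2 of 3 called higher in the AKR cross. Fat markers, 2 in number and including Adipoq, which encodes adiponectin, averaged 9.34 to 10.57 on the AKR arrays, against 10.22 to 11.03 on the DBA arrays. The 4 muscle markers averaged 5.31 to 7.31 on the AKR arrays, against 5.53 to 10.15 on the DBA arrays, with 0 of 4 called (limma) and 0 at an unadjusted p under 0.05. DBA replicate 1 was the highest array for each muscle marker, such as Acta1 at 11.99, against 7.30 and 8.39 on the other DBA arrays. The 4 macrophage markers averaged 8.37 to 8.40 on the AKR arrays, against 8.28 to 8.33 on the DBA arrays, but did not share one direction. Of these Mertk had a called AKR-higher difference (0.41), while Cd68 (0.23), Csf1r (-0.04) and Adgre1 (-0.29) were not called. The part of these cells in the differences of Rabif and Kdm5b was not tested.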

How the data were processed

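Thymus RNA from 3 samples per cross was measured, grouped by sample title. The authors deposited log2 values for 45101 probe sets. The submitters' processing notes name MAS5 and RMA without role or version. The values lay between 2.47 and 14.4, and precision is limited by the number of arrays.

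The 64 control probe sets were left out, and a probe set was tested if it passed its array's 40th percentile on 3 or more arrays (27385 of 45037). The platform annotation gave a single symbol to 34945 probe sets, more than 1 to 932 and no symbol to 9160. Entrez identifiers tied 34741 of the single ones to RefSeq of GRCm38.p6, which set the gene order. Each gene was represented by its brightest tested probe set (12855 genes).

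Differences came from limma (version 3.58.1, in R 4.3.3) using lmFit and eBayes with a variance trend. P-values were two-sided and adjusted by Benjamini-Hochberg across genes, or across probe sets where 1 probe set is described. The code was first tested on simulated data. Figures used matplotlib 3.10.9 under Python 3.11.15.

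The 5 genes, the neighbour rule and the lists were chosen with earlier results of these data known. Named genes were the 5 genes, called neighbours and the nearest 5 on each side, up to 4 called genes per list by adjusted p, and the 5 genes most like Kdm5b and Rabif. Others are marked as named after their values were seen. Alternatives changed the filter, scaling, variance model, probe set per gene, replicate block and arrays used.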

Additional observations from a re-analysis of the deposited data

How the results depend on the processing

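In 16 alternative settings (15 for a probe set of the 5 genes, 14 for those ending in _s_at or _x_at) Setd1a alone among the called genes named here changed direction, to -0.30 with its probe sets averaged, and the differences of the brightest Rabif (-1.84 to -1.71) and Kdm5b (-1.01 to -0.85) probe sets stayed within 1 SD of their arrays. Differences near 0 changed sign once each for Klhl12 (lowest -0.01), Kdm5b 1427142_s_at (highest 0.03) and Kdm5b 1457482_at (lowest -0.07). With 1 array left out, called genes numbered 1816 to 2490 against 3084, with 906 to 1431 higher in the AKR cross (against 1604) and 910 to 1214 higher in the DBA cross (against 1480). The 8 called neighbours then numbered 4 to 7, with 2 to 4 AKR-higher and 1 to 4 DBA-higher (against 4 each), and the 26 called list genes numbered 16 to 25 (without DBA replicate 2, 16), with 8 to 12 AKR-higher (against 11) and 8 to 13 DBA-higher (against 15). Quantile rescaling gave 7 neighbours and 18 list genes called higher in the AKR cross, and a common 75th percentile gave 17 list genes, where the median of all genes was 0.06 and 0.07 against 0.03. The setting without probe sets ending in _s_at or _x_at was chosen after seeing the data, gave 7 called neighbours, and ended the call of Mdm4 (adjusted p = 0.0827, limma). Samples of the 2 crosses with the same number correlated in their deviations at 0.389, 0.070 and 0.371, against -0.375 to 0.075 for different numbers. The main fit did not take the numbers as pairs, although 5 of 6 arrays correlated best with their own number. The exception was DBA replicate 2, with 0.075 against AKR replicate 3. With the replicate number as a block, 4194 genes, 11 neighbours and 35 list genes were called, and Btg2 (adjusted p = 0.00686, limma) and Ppfia4 (0.0274) passed. With a floor at the 20th percentile 8 neighbours were called, as without it, and 3 arrays per cross and dim probe sets limit the smaller differences.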
